A study of Mus musculus with 7 samples.

Results

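Cycling myeloid cells were taken as droplet barcodes that held transcripts of Mki67 and Top2a together with myeloid transcripts. A barcode was a member when it had at least 1 UMI (unique molecular identifier, a counted transcript molecule) of Mki67, at least 1 of Top2a, at least 5 of Lyz2, C1qa, C1qb and C1qc summed, and 0 of Cd3e, Cd3d and Cd3g summed. This rule found 593 members among 25152 myeloid barcodes, of 40416 kept barcodes in all. Members were thus chosen by the measured counts of those 9 genes, so the levels of these genes are given as a description only.

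The cells were CD45-positive, DRAQ7-negative leukocytes sorted from the left, tumour-bearing hemisphere of female wild-type mice, 8 to 9 weeks old, carrying GL261 glioma, a mouse glioma line grown in the brain. They were harvested on day 21. Every group carried the tumour, and the groups were untreated (1 library), PT2385, a small-molecule inhibitor of HIF-2alpha, at 10 mg/kg (2 libraries), ICB, immune checkpoint blockade with antibodies to PD-1 and TIM-3 (2 libraries), and PT2385 with ICB, here called the combination (2 libraries). Each of the 7 libraries pooled cells of 2 mice, so mice within a library cannot be told apart, and the untreated group has no replicate. The protocols describe vehicle and isotype control treatments without saying which of them the untreated mice received. The libraries held 59839154 to 81960504 UMIs, and the numbers of pool 1 and pool 2 within a group are names only.

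A dividing cell copies its DNA in S phase, with the MCM helicase and PCNA, and then separates the copies in mitosis, driven by cyclin B and CDK1. Topoisomerase II alpha (Top2a) untangles the copied DNA, and Ki-67 (Mki67) coats mitotic chromosomes. In the brain, microglia renew themselves by local division. Blood monocytes that enter a tumour become macrophages, and dendritic cells arise from FLT3-dependent precursors that can still divide in tissue.

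The label was first set against other cell cycle transcripts. A DNA replication list and a mitosis list, 107 genes together and without Mki67 and Top2a, split the members into 2 populations. Of the 593 members, 357 (60.2%) stood above 37.7 UMIs of both lists per 10000 UMIs of a barcode, the 99th percentile of the 21256 myeloid barcodes with neither Mki67 nor Top2a, called non-dividing here. These 357 are called cycle-high members. Their median was 110 per 10000, against 14.0 in the remaining 236 members and 13.3 in the non-dividing barcodes. The split was made on these same lists, so the medians of the 357 and the 236 follow in part from it. By this cut the label "cycling" is kept for the 357, and it is not borne out by the other cycle transcripts of the 236. The percentile was chosen after seeing the data, and 57 members lay within 1.5 times of it.

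The 236 members with a low cycle level carried few transcripts of the genes that chose them. Their median was 1 UMI of Mki67 and 1 of Top2a, against 11 and 13 in the cycle-high members, while their median Lyz2 count was 182.5 against 43. Of these 236, 183 were assigned to the macrophage-like clusters or to the C4b cluster described below. Pcna, the sliding clamp of DNA replication, was at 73.1 CPM (UMIs per 1000000) in them, 246 CPM in the cycle-high members and 67.1 CPM in the non-dividing barcodes. Pcna is in the replication list, by which the cycle-high members were split off, so these levels are a description. Counts from the 3' end of transcripts are not scaled by transcript length, and whether CPM levels can be compared between different genes was not tested.

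**Figure D1:**
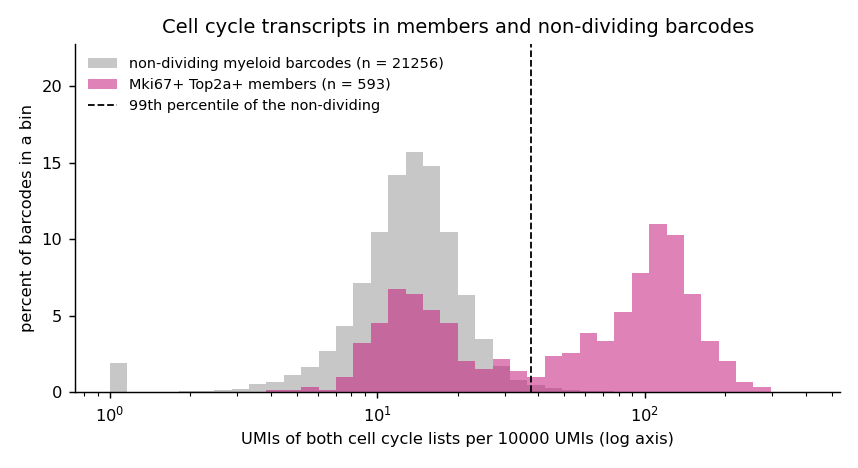
Percent of barcodes (y axis) by UMIs of the DNA replication and mitosis lists together per 10000 UMIs (x axis, log scale), for the 593 members and the 21256 non-dividing myeloid barcodes; values under 1 are drawn at 1, and the dashed line is the 99th percentile of the non-dividing barcodes. The members form 2 peaks, with the left one over the non-dividing barcodes (median 14.0 against 13.3) and the right one near 110.

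At the edges of the rule, 137 members had exactly 1 UMI of each of Mki67 and Top2a. The smaller of the 2 counts was 1 in 275 members, of which 67 were cycle-high, and 6 or more in 217, of which 216 were. At the myeloid edge, 22 members had exactly 5 UMIs of Lyz2 and C1q, 26 otherwise eligible barcodes fell short by 1 UMI, and 48 were left out by 1 Cd3 UMI. Another 380 myeloid barcodes stood above the same percentile without being members, so the rule does not take every barcode with a high cycle level.

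Levels of cell cycle genes were described in the cycle-high members. Ccna2, Ccnb1, Cdk1 and Mcm5 are in the replication and mitosis lists that chose these members, so their higher levels follow in part from that choice. Cyclin A2 (Ccna2), which acts in S and G2 phase, was at 81.2 CPM against 0.371 in the non-dividing barcodes, and cyclin B1 (Ccnb1), the mitotic cyclin, at 75.7 against 0.438. Cdk1, its kinase, was at 169 against 3.40, and Mcm5, a helicase subunit, at 90.7 against 5.04. Foxm1, a transcription factor of mitotic genes, was at 27.3 against 0.551. Of the D cyclins, which carry growth signals into the cycle, Ccnd1 was at 155 CPM against 72.0 and Ccnd2 at 74.4 against 31.2, while Ccnd3 was at 96.9 against 153. The cycle inhibitor Cdkn1a (p21) was at 344 against 501, and Cdkn2d (p19) at 63.1 against 19.7. Most cycle-high members held more mitosis than replication UMIs, since only 110 of 357 (30.8%) had more of the replication list.

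Csf1r, the receptor for the macrophage growth factor CSF-1, was at 501 CPM in the cycle-high members against 852 in the non-dividing barcodes. These levels mix several cell types, which are separated below.

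Transcripts of other cells were looked for in the members. Ptprc, which encodes the sorted antigen CD45, had a UMI in 572 of 593 (96.5%). A doublet score called 30 members (5.06%), made up of 10 of the 357 cycle-high members (2.8%) and 20 of the other 236 (8.47%), against 2.99% of the non-dividing barcodes. At least 10 UMIs of a list were found in 23 cycle-high members for NK cells, in 18 for granulocyte precursors, in 14 for mast cells or basophils, in 11 for B or plasma cells, in 9 for T cells and in 6 for neural or glioma cells. All 6 of the last lay in low-depth clusters, and 4 of them had no Ptprc UMI. No barcode sequence was a member in more than 1 library. Of 40242 distinct kept sequences, 174 were kept in more than 1 library, and whether sequences of members are among them was not counted.

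The first question was how large the dividing share was in each treatment group. The dividing share is the percent of barcodes that were members, at any cycle level, unless cycle-high members are named. Members were 1.23% of myeloid barcodes in the untreated library, 2.43% and 2.25% with PT2385, 6.19% and 2.3% with ICB, and 1.62% and 1.28% with the combination. ICB pool 1 stood above the remaining 6 libraries, with an exact 95% binomial interval of 5.36% to 7.11%, and held 187 of the 593 members. Among cycle-high members alone it stood further apart, at 5.46% against 0.537% to 1.32% elsewhere, and held 46.2% of them. The intervals cover counting error only. A UMI of the T, NK, B or plasma cell lists was present in 465 of the 593 members. With all barcodes holding such a UMI removed, the share in ICB pool 1 was 2.56% (exact interval 1.75% to 3.62%), against 0.449% to 1.44% elsewhere, and its interval overlapped that of PT2385 pool 1 (0.871% to 2.25%).

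**Figure D2:**
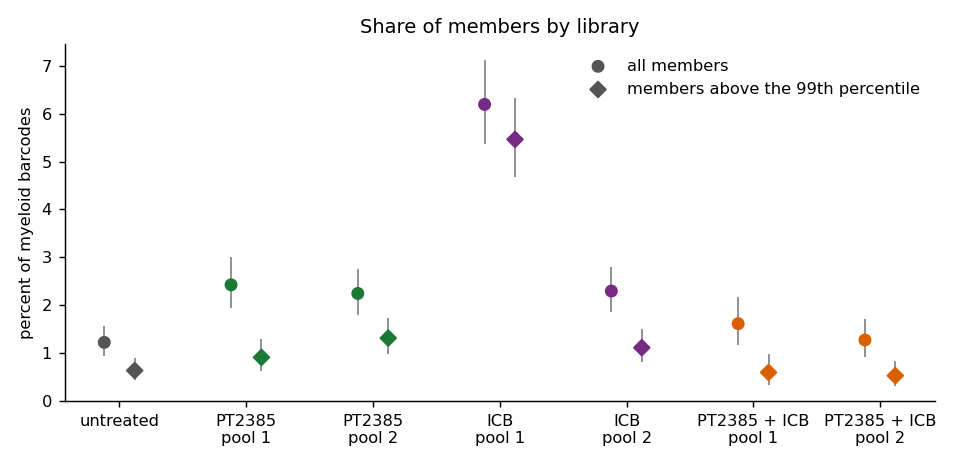
Percent of myeloid barcodes (y axis) that were members (circles) and cycle-high members (diamonds) in each library (x axis), with exact 95% binomial intervals as bars. ICB pool 1 is highest in both, at 6.19% and 5.46%, and the other 6 libraries lie between 1.23% and 2.43% for members.

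Neither treatment moved the dividing share past the test, which could not reach a p under 0.05 with these libraries. The 4 libraries with PT2385 averaged 1.90 ± 0.534% (SD, n = 4) and the 3 without it 3.24 ± 2.61% (SD, n = 3), a difference of -1.34 percentage points (exact permutation test, two-sided, p = 0.629). For ICB the means were 2.85 ± 2.27% (SD, n = 4) and 1.97 ± 0.647% (SD, n = 3), a difference of 0.882 points (exact permutation test, two-sided, p = 0.743). The smallest p this design allows is 0.0571. Without ICB pool 1 both differences changed sign, to 0.132 points (exact permutation p = 0.667) for PT2385 and -0.231 (p = 0.8) for ICB. Thinning each barcode to 3000 UMIs gave 2.78% in ICB pool 1 and 0.283% to 0.926% in the other libraries, with 454 to 1214 shallower barcodes per library left out.

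The stage of the cycle was then compared. The log2 ratio of replication to mitosis transcripts in the summed members was -0.43 in the untreated library, -1.18 and -0.98 with PT2385, -0.78 and -0.83 with ICB, and -1.05 and -0.76 with the combination. The untreated library leaned least towards mitosis and PT2385 pool 1 most. The 4 libraries with PT2385 were lower by 0.31 on average, within the spread (difference -0.31, exact permutation test, two-sided, p = 0.171), and ICB made a difference of 0.01 (exact permutation p = 0.971). In cycle-high members the PT2385 difference was -0.40 (exact permutation p = 0.114).

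The main question was which myeloid type divides. Each member was assigned to a cluster of non-dividing barcodes by the vote of its 15 nearest such neighbours, with cell cycle genes kept out. The median vote was 93.3%, and 34 members had under 50% of their neighbours in the cluster taken. Macrophage-like members were the most numerous in total, with 232 (39.1%), followed by the Ccl24 cluster with 101 (17%), the C4b cluster with 56, low-depth clusters with 51, conventional dendritic-like with 48, microglia-like with 32, lymphoid-like with 28 and monocyte-like with 22. The other 23 lay in small clusters. Among the 357 cycle-high members the order was different: the Ccl24 cluster had 90 (25.2%), macrophage-like 80 (22.4%), low-depth clusters 45, conventional dendritic-like 39, microglia-like 29, the C4b cluster 25, lymphoid-like 20 and monocyte-like 14, with 15 in other clusters.

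**Figure D3:**
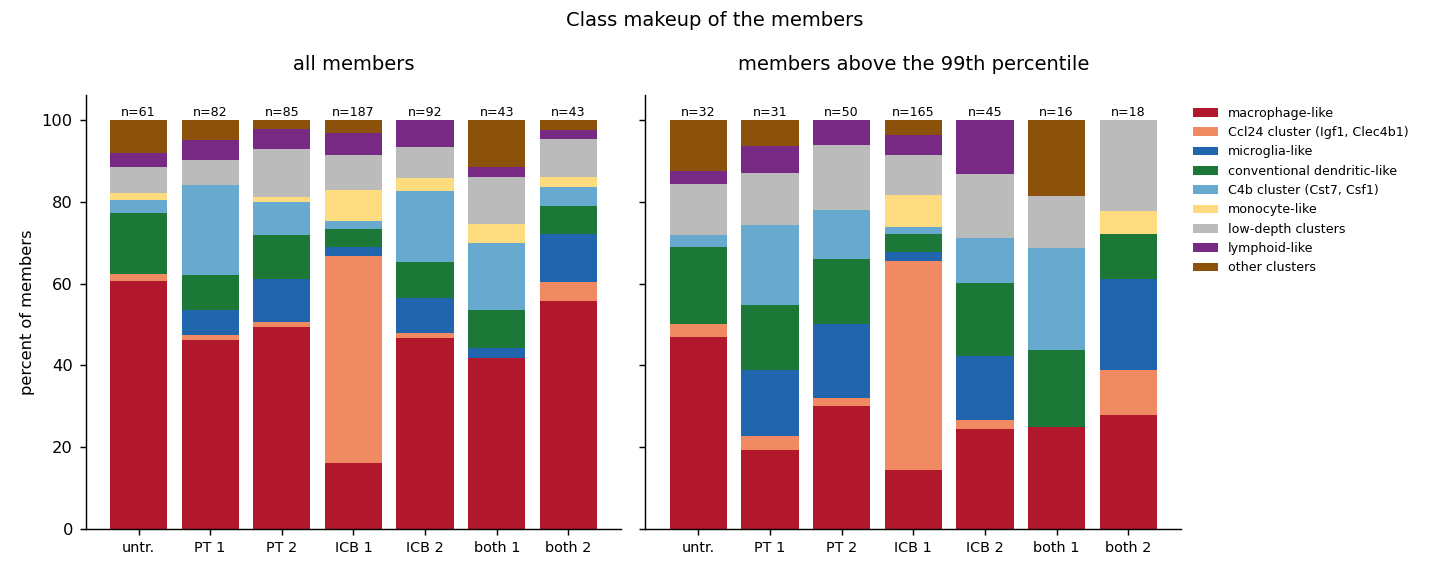
Percent of members by class (stacked bars, y axis) in each library (x axis: untr., untreated; PT, PT2385; both, the combination; numbers are pools; n, members), for all members and for cycle-high members. The Ccl24 cluster makes up 50.8% of the members of ICB pool 1 and few elsewhere, and macrophage-like members make up 16.0% there against 41.9% to 60.7% in the other libraries.

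The class with the most members differed between ICB pool 1 and the rest. Macrophage-like barcodes were 60.7% of the members in the untreated library, 46.3% and 49.4% with PT2385, 16.0% and 46.7% with ICB, and 41.9% and 55.8% with the combination. They led in every library but ICB pool 1, where the Ccl24 cluster led with 95 of 187. Without that library they were 202 of 406 members (49.8%) and 56 of 192 cycle-high members (29.2%). Among cycle-high members they were 46.9% in the untreated library, 19.4% and 30.0% with PT2385, 14.5% and 24.4% with ICB, and 25% and 27.8% with the combination. The C4b cluster equalled them in PT2385 pool 1, with 6 cycle-high members each, and in combination pool 1, with 4 each.

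No class passed as a part of the members with either treatment. Of 9 classes, 0 passed for PT2385 and 0 for ICB (edgeR quasi-likelihood test, adjusted p under 0.05), with 0 and 0 also at an unadjusted p under 0.05. An exact permutation test cannot go below 0.0571 here. The Ccl24 cluster had a fitted log2 change of 2.38 with ICB (SE 1.65, edgeR adjusted p = 0.741) and -2.52 with PT2385 (SE 1.46, edgeR adjusted p = 0.733). Monocyte-like members had the smallest p for ICB, at 2.00 (SE 0.88, edgeR adjusted p = 0.497). These calls turned on a library: without ICB pool 2, 3 classes passed for PT2385, namely the C4b cluster at 2.19 (adjusted p = 0.0414), the Ccl24 cluster at -3.27 (adjusted p = 0.00356) and microglia-like at 2.30 (adjusted p = 0.0494), all by edgeR. Without the same library the Ccl24 cluster passed for ICB at 3.14 (edgeR, adjusted p = 0.0189).

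Macrophage-like barcodes were those of 4 clusters with 11 to 14 of 14 macrophage markers detected, among them Arg1, Ms4a7 and Spp1. They also had 8 to 9 of 10 monocyte markers. Detection alone does not set the class apart, since the C4b cluster had 14 macrophage markers. The Ccl24 cluster and the monocyte-like cluster led by Hp had 11 each. The name rests on the leading genes as well. Members made up 1.56% of these barcodes without treatment, 1.84% and 1.96% with PT2385, 4.55% and 2.58% with ICB, and 2.69% and 2.61% with the combination. Every library with ICB lay above every library without it. The means were 3.11 ± 0.965% (SD, n = 4) and 1.79 ± 0.209% (SD, n = 3), a difference of 1.32 points at the smallest p the design allows (exact permutation test, two-sided, p = 0.0571, adjusted over 5 classes 0.286). The edgeR test of the same counts gave a log2 change of 0.75 (SE 0.40, adjusted p = 0.493).

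The ICB order of the macrophage-like share did not hold in cycle-high members. Their share of the class was 0.631% untreated, 0.29% and 0.702% with PT2385, 3.64% and 0.659% with ICB, and 0.597% and 0.544% with the combination. ICB pool 1 was alone above the rest, and the other groups overlapped (edgeR log2 change 0.84, SE 0.81, adjusted p = 0.831). PT2385 gave -1.22 (SE 0.78, edgeR adjusted p = 0.318) for cycle-high members and -0.13 (SE 0.40, edgeR adjusted p = 0.933) for all members. Of the macrophage-like members, 15 of 37 were cycle-high in the untreated library, 6 of 38 and 15 of 42 with PT2385, 24 of 30 and 11 of 43 with ICB, and 4 of 18 and 5 of 24 with the combination.

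Among the macrophage-like clusters, cycle-high members came mostly from the cluster led by Gdf3, Tgfb3, Ms4a7 and Cd72. It held 140 members, of which 62 were cycle-high. Its members were 1.94% of it in the untreated library, 2.85% and 2.85% with PT2385, 11.2% and 3.83% with ICB, and 4.31% and 4.71% with the combination. The cluster led by Nos2, Inhba, Upp1 and Arg1 held 45 members and 1 cycle-high member, although it had 3043 barcodes. The cluster led by Fabp4 and Gpnmb held 27 members and 6 cycle-high ones, and the cluster with F630028O10Rik, Spp1 and Ccr2 among its leading genes held 20 and 11.

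**Figure D4:**
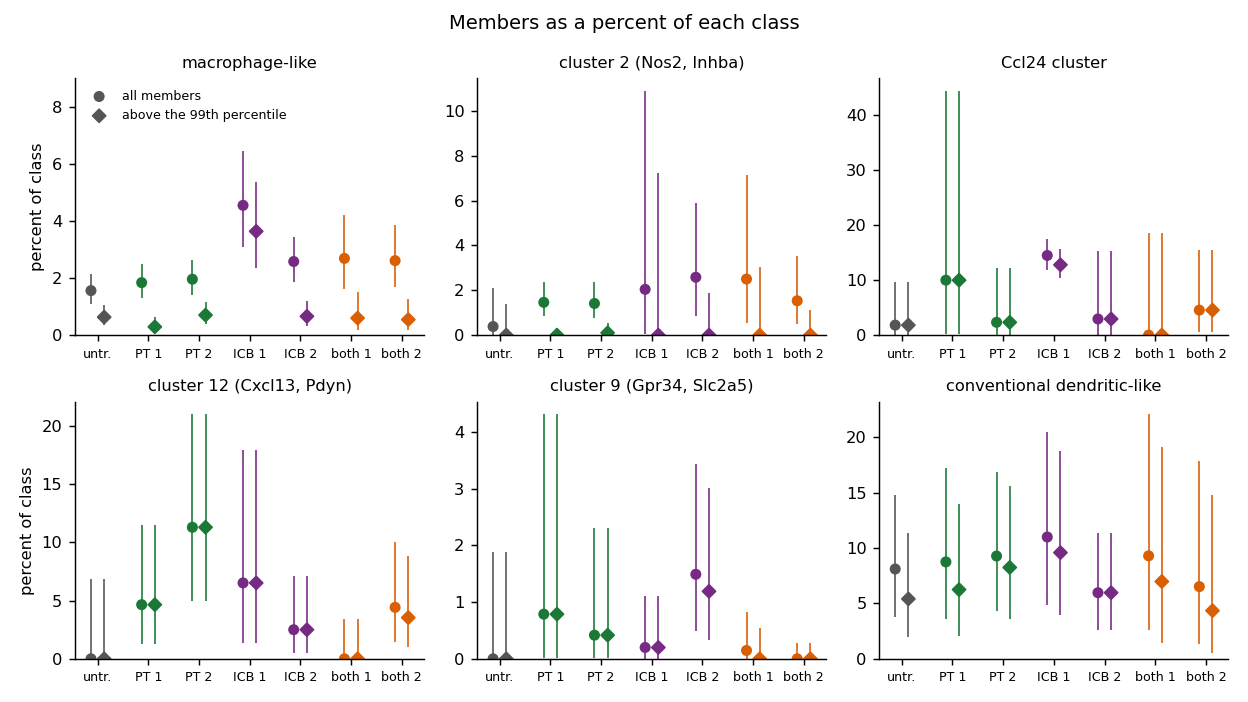
Percent of a class or cluster (y axes, with their own scales) that were members (circles) and cycle-high members (diamonds) in each library (x axis), with exact 95% binomial intervals as lines, for macrophage-like barcodes and the cluster of them led by Nos2, the Ccl24 cluster, the microglia-like clusters led by Cxcl13 and by Gpr34, and conventional dendritic-like barcodes. Macrophage-like members lie between 1.56% and 1.96% without ICB and between 2.58% and 4.55% with it, and conventional dendritic-like members lie between 5.97% and 11.0%.

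The Ccl24 cluster was led by Ccl24, a chemokine for eosinophils, with Igf1, Ear2, Clec4b1, Pf4 and Mrc1, the mannose receptor. It had 11 of 14 macrophage markers and 6 of 9 border macrophage markers detected, and no macrophage-list gene among its 10 leading genes, which hold the border macrophage markers Pf4, Mrc1 and Cbr2. It was left unnamed, and it is not shown to be other than a macrophage. Of its 858 barcodes, 654 came from ICB pool 1, where it made up 21.6% of myeloid barcodes against 0.296% to 1.31% in the other libraries. In ICB pool 1, 95 of 654 (14.5%, exact interval 11.9% to 17.5%) were members and 84 were cycle-high. Elsewhere it held 6 members of 204 barcodes, with 1 each in the untreated library, both PT2385 pools and ICB pool 2, 0 of 18 in combination pool 1, which allows up to 16.7% (3 counts of the total, as for every count of 0 here), and 2 of 44 in combination pool 2. The cluster and the library cannot be told apart, and ICB pool 2 had 34 barcodes of it.

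The cycle-high members of the Ccl24 cluster carried its leading genes near the level of its non-dividing barcodes. Members were placed by their likeness to non-dividing barcodes, so this follows in part from the assignment and is a description. Ccl24 was at 179 CPM against 156, Igf1 at 107 against 129, Mrc1 at 566 against 571, Pf4 at 293 against 278, and Clec4b1 at 74.3 against 60.0. The replication list exceeded the mitosis list in 40 of 90 (44.4%), against 19 of 80 (23.8%) in macrophage-like cycle-high members, and most of the 90 came from a single library. Arg1, which degrades arginine, was at 324 CPM, against 101 in macrophage-like cycle-high members.

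Members in the microglia-like class, which leaves out the low-depth clusters described below, were few but nearly all cycle-high, 29 of 32. There were 0 of 246 in the untreated library, which allows up to 1.22% (3 counts of the total), then 2.35% and 2.89% with PT2385, 0.734% and 1.75% with ICB, and 0.128% and 0.35% with the combination. The class was most frequent with the combination, at 29.6% and 42.7% of myeloid barcodes against 4.95% to 18% elsewhere. The share was not tested, since it averaged under 5 members per library. As a part of the members, the class changed with PT2385 by a log2 value of 1.31 (SE 1.05, edgeR adjusted p = 0.733). With 1 mean per group it was 5.59 (log2) for the combination against untreated. The interaction, the departure of the combination from the sum of both treatment effects, was -5.41. Both rest on 1 untreated library, with 0 members of the class.

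The dividing microglia-like barcodes belonged mostly to a small cluster. That cluster, led by Cxcl13, Pdyn, Csf1 and Egr3, held 23 members of 593 barcodes (3.88%), and the large cluster led by Gpr34 and Slc2a5 held 9 of 3392 (0.265%). The share of the Cxcl13 cluster was 0 of 52 in the untreated library, which allows up to 5.77%, 4.65% and 11.3% with PT2385, 6.52% and 2.5% with ICB, and with the combination 0 of 105, which allows up to 2.86%, and 4.42%. The libraries overlapped, and the mix of the 2 clusters differed between them: the Cxcl13 cluster was 86 of 213 microglia-like barcodes in PT2385 pool 1 and 113 of 1430 in combination pool 2. P2ry12, a purine receptor of resting microglia, was at 438 CPM in the 29 cycle-high members, with a UMI in all 29, against 1520 in the non-dividing barcodes of the class. Tmem119, a microglial membrane protein, was at 262 against 726. Csf1, the ligand of Csf1r, was at 188 CPM in the 29 cycle-high members, against 2.12 in macrophage-like and 3.45 in Ccl24 cluster cycle-high members, and Csf1r itself was at 1430. Of the 29, 22 lay in the Cxcl13 cluster, of which Csf1 is a leading gene. Of the 3770 non-dividing barcodes of the class, 3259 lay in the Gpr34 cluster, which has P2ry12 among its leading genes. The levels thus compare different mixes of the 2 clusters and are a description.

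The C4b cluster was led by Cst7, C4b and Csf1, and was left unnamed. It had a detected level of 13 of 13 microglia markers and 14 of 14 macrophage markers, 2.36 times the median UMIs of its libraries, and doublet calls on 39.0% of its barcodes. Members were 1.39% of it in the untreated library, 11.8% and 5.34% with PT2385, 4.88% and 11.0% with ICB, and 10.1% and 1.89% with the combination, and 25 of its 56 members were cycle-high. With doublet calls removed the effect on the share went from 0.48 (SE 0.88) to 1.22 (log2, SE 0.75, edgeR adjusted p = 0.529) for PT2385 and from 0.38 (SE 0.87) to 1.32 (SE 0.75, edgeR adjusted p = 0.293) for ICB. With doublets kept and 1 mean per group, the interaction for the share was -3.19 (log2), which rests on 1 untreated library.

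Conventional dendritic-like barcodes had dividing shares that overlapped between the groups. Members made up 8.11% of these barcodes without treatment, 8.75% and 9.28% with PT2385, 11.0% and 5.97% with ICB, and 9.3% and 6.52% with the combination, and 39 of 48 were cycle-high. The fitted effects were 0.04 (log2, SE 0.44, edgeR adjusted p = 0.933) for PT2385 and -0.10 (SE 0.44, edgeR adjusted p = 0.833) for ICB. At a finer clustering, a type 1 dendritic-like cluster led by Xcr1, Itgae and Btla had a higher dividing share than any class above, 32 members of 123 barcodes (26%, exact interval 18.5% to 34.7%). It was 18.2% in the untreated library, 20.8% and 40.0% with PT2385, 41.7% and 31.2% with ICB, and 14.3% and 18.2% with the combination, on 7 to 33 barcodes a library. The share counts only barcodes with at least 5 UMIs of Lyz2 and C1q. Median Lyz2 was 6 in the non-dividing and 7 in the cycle-high barcodes of this cluster, with median UMIs of 22546 and 38412. Barcodes of the type below the floor are not counted, and the effect of the floor on the share was not tested. The type 2 dendritic-like cluster, led by Ccl17, Cd209a and Mgl2, held 19 of 516 (3.68%).

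Type 1 dendritic-like cycle-high members carried the genes of the type near the level of its non-dividing barcodes. This too follows in part from the assignment by likeness and is a description. Xcr1, a chemokine receptor of cross-presenting dendritic cells, was at 507 CPM against 492, and Clec9a, a receptor for dead cells, at 354 against 415. The cytokine receptors Flt3 and Kit were at 283 against 286 and 188 against 195. In macrophage-like cycle-high members Flt3 was at 3.82. Csf1r was at 82.7 in all conventional dendritic-like cycle-high members, against 494 in macrophage-like ones.

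Monocyte-like members were scarce. Members made up 0.0791% of these barcodes without treatment, 0 of 250 in PT2385 pool 1, which allows up to 1.2% (3 counts of the total), 0.222% in PT2385 pool 2, 3.03% and 0.275% with ICB, and 0.631% and 0.633% with the combination. Of the 14 cycle-high ones, 13 came from ICB pool 1, so the class and that library cannot be told apart. All 14 held Ly6c2, a monocyte surface antigen, at 2610 CPM, and Plac8 was at 2190. Elane, which encodes neutrophil elastase, was at 3810 CPM with a UMI in 7 of 14, against 0.179 in the non-dividing barcodes of the class, and Mpo, myeloperoxidase, at 1320 in 3 of 14. At least 10 UMIs of the granulocyte precursor list were found on 7 of the 14, so the name monocyte-like holds for this class as a cluster and is not shown for these 7. Elane was at 679 CPM in all members of ICB pool 1 and 0 in the members of the other 6 libraries.

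The low-depth clusters had median UMIs of 0.136 to 0.297 times those of their libraries, and were left unnamed. The cluster at 0.136 times, led by Cst7 and Crybb1, had 12 of 13 microglia markers and 7 of 14 macrophage markers detected. It held 33 members, of which 30 were cycle-high. The cluster at 0.232 times had 13 microglia and 1 macrophage marker detected, and the cluster at 0.297 times had 4 and 10. The 45 cycle-high members of the low-depth clusters had a median of 6377 UMIs. Cdkn2a, a cycle inhibitor often altered in tumour lines, was at 186 CPM in them, against 20.0 in all cycle-high members, on 9 barcodes. Nes, an intermediate filament of neural progenitors, was found on 7 of them and Sox2, a neural stem cell factor, on 6. The part of tumour cells and of microglia among these barcodes was not tested. For the dividing share of the low-depth clusters the interaction was -3.11 (log2, 1 mean per group), which rests on 1 untreated library.

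The drug targets themselves were measured in the members. Epas1, which encodes HIF-2alpha, was at 0 CPM in the members of the untreated library, 1.13 and 0.458 with PT2385, 1.38 and 1.95 with ICB, and 2.21 and 1.75 with the combination. Hif1a, which encodes the related HIF-1alpha, was at 345, 462 and 364 in the same first 3 libraries, 138 and 332 with ICB, and 375 and 366 with the combination. Havcr2, which encodes TIM-3, was at 206 CPM without treatment and between 132 and 181 CPM with any, with 309 in conventional dendritic-like and 60.8 in monocyte-like cycle-high members. Pdcd1, which encodes PD-1, stayed between 0.983 and 3.5.

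Genes were next compared in the summed members of each library. Of 10702 genes tested, 0 were called for PT2385 (0.0%) and 0 for ICB (0.0%) by edgeR's quasi-likelihood test at an adjusted p under 0.05. At an unadjusted p under 0.05 there were 870 (8.13%) for PT2385 and 732 (6.84%) for ICB, and DESeq2 called 39 (0.364%; 8 higher, 0.0748%, and 31 lower, 0.29%) and 5 (0.0467%; 2 higher, 0.0187%, and 3 lower, 0.028%). DESeq2 had 548 (5.12%) and 453 (4.23%) at an unadjusted p under 0.05. In cycle-high members alone, edgeR called 0 of 9474 (0.0%) for each, with 717 (7.57%) and 789 (8.33%) at an unadjusted p under 0.05. Without ICB pool 2 there were 41 calls for PT2385 in them (21 higher, 20 lower), and without combination pool 2 there was 1 for each treatment. The summed members mix classes whose shares differ between libraries.

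The genes with the smallest p for PT2385 were Gzmb and Ctla2a, at log2 values of -3.64 and -2.81, Ccl12, Gpr183 and Cd69, all at an edgeR adjusted p of 0.304. At an unadjusted p under 0.05, 482 of all 10702 genes lay lower with PT2385, with 5 of 7 of the NK cell list and 5 of 5 of the mast cell or basophil list. The latter also lay lower with ICB in 5 of 5. Summed NK markers were at 217 CPM in the untreated library, 180 and 75.6 with PT2385, 245 and 119 with ICB, and 100 and 64.8 with the combination. Mast cell or basophil markers were at 1160 CPM without treatment, where 5 members held at least 10 of their UMIs, and between 11.8 and 143 CPM with any. For ICB the smallest p belonged to Slc15a2, a peptide transporter, at 6.4 CPM in the untreated library, 21.5 and 26.1 with PT2385, 53.7 and 42.5 with ICB, and 89.1 and 52.5 with the combination (log2 1.89, edgeR adjusted p = 0.721).

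In cycle-high members, Cd274, which encodes PD-L1, was at 382 CPM in the untreated library, 350 and 360 with PT2385, 186 and 167 with ICB, and 204 and 182 with the combination. The 4 libraries with ICB lay below the 3 without it, and the gene did not pass (log2 -1.01, SE 0.16, edgeR adjusted p = 0.551). Acod1, which makes itaconate in activated macrophages, was at 73.6 CPM in the untreated library, 115 and 119 with PT2385, 30.1 and 44.1 with ICB, and 44.5 and 50.2 with the combination (log2 -1.23). These were among the 5 smallest p for ICB.

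Macrophage-like members were the largest class, with 18 to 43 per library, and were compared alone, a choice made after seeing the data. Of these 232, 152 had a low cycle level (median 13.5 UMIs of both lists per 10000, against 13.2 in the non-dividing barcodes of the class), so their values are those of members and not of dividing cells alone. Of 8325 genes, 6 passed for PT2385 (0.0721%), 1 higher (0.012%) and 5 lower (0.0601%), and 1 for ICB (0.012%), by edgeR at an adjusted p under 0.05. At an unadjusted p under 0.05 there were 832 (9.99%) and 307 (3.69%). The chemokines Ccl7 and Ccl12, which attract monocytes, the decoy interleukin-1 receptor Il1r2, the NF-kappaB subunit Rel and St7 fell with PT2385, and Upp1, uridine phosphorylase, rose. The transthyretin gene Ttr, expressed most strongly in choroid plexus, rose with ICB.

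Ccl7 in macrophage-like members was at 487 CPM in the untreated library, 53 and 23.3 with PT2385, 504 and 81.6 with ICB, and 3.47 and 18 with the combination. The 4 libraries with PT2385 lay below the 3 without it (log2 -4.09, SE 0.57, edgeR adjusted p = 0.04). Non-dividing macrophage-like barcodes held 131, then 35.4 and 37.5, 165 and 98.4, and 29.4 and 42.9, in the same order and with the same separation. The difference between the changes in members and in non-dividing barcodes did not pass (log2 -2.13, SE 0.41, edgeR adjusted p = 0.238).

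Ccl12 was at 891 CPM in the untreated library, 252 and 185 with PT2385, 721 and 360 with ICB, and 153 and 239 with the combination (log2 -1.70, SE 0.25, edgeR adjusted p = 0.04). Il1r2 was at 160, 19 and 15.5, 65.3 and 32, and 15.6 and 16.2 in that order (log2 -2.55, SE 0.36, edgeR adjusted p = 0.04). Upp1 moved the other way, at 20.6, 115 and 82.6, 5.23 and 18.7, and 53.8 and 75.6 (log2 2.30, SE 0.34, edgeR adjusted p = 0.04). For each of these 3 genes the libraries with PT2385 did not overlap those without it. Rel changed by -1.28 (SE 0.17, edgeR adjusted p = 0.04) and St7 by -1.57 (SE 0.24, edgeR adjusted p = 0.0401).

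These 6 calls depended on the libraries. Leaving out the untreated library, either PT2385 pool or combination pool 1 left 0 calls for PT2385, and leaving out combination pool 2 left 1, which was none of the 6. Without ICB pool 1 there were 5, with Ccl7, Il1r2, Upp1 and Rel kept, and without ICB pool 2 there were 17, with all 6 kept. The direction of Ccl7 held in each, from -4.67 to -3.54, with edgeR adjusted p of 0.00153 to 0.239. The cluster led by Nos2 and Upp1 made up 1 of 37 macrophage-like members in the untreated library, 16 of 38 and 14 of 42 with PT2385, 1 of 30 and 5 of 43 with ICB, and 3 of 18 and 5 of 24 with the combination. At the finer clustering a macrophage-like cluster had Ccl7, Ccl12 and Il1r2 among its leading genes, and it held 22 members in the untreated library, 1 and 3 with PT2385, 18 and 6 with ICB, and 0 and 2 with the combination. The part of both clusters in these results was not tested.

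Ttr was at 0 CPM in the macrophage-like members of the untreated library, 5.0 and 1.94 with PT2385, 49.7 and 91.5 with ICB, and 198 and 241 with the combination. The 4 libraries with ICB lay above the 3 without it (log2 6.12, SE 0.43, edgeR adjusted p = 9.3e-05), and the call held with each library left out. Non-dividing macrophage-like barcodes held 0.389, then 9.37 and 1.31, 51.4 and 90.5, and 218 and 288 CPM. The summed choroid plexus list in all members was at 2.13 CPM in the untreated library, 109 and 7.34 with PT2385, 1380 and 91.7 with ICB, and 1990 and 247 with the combination. The part of free choroid plexus RNA in the Ttr values was not tested.

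**Figure D5:**
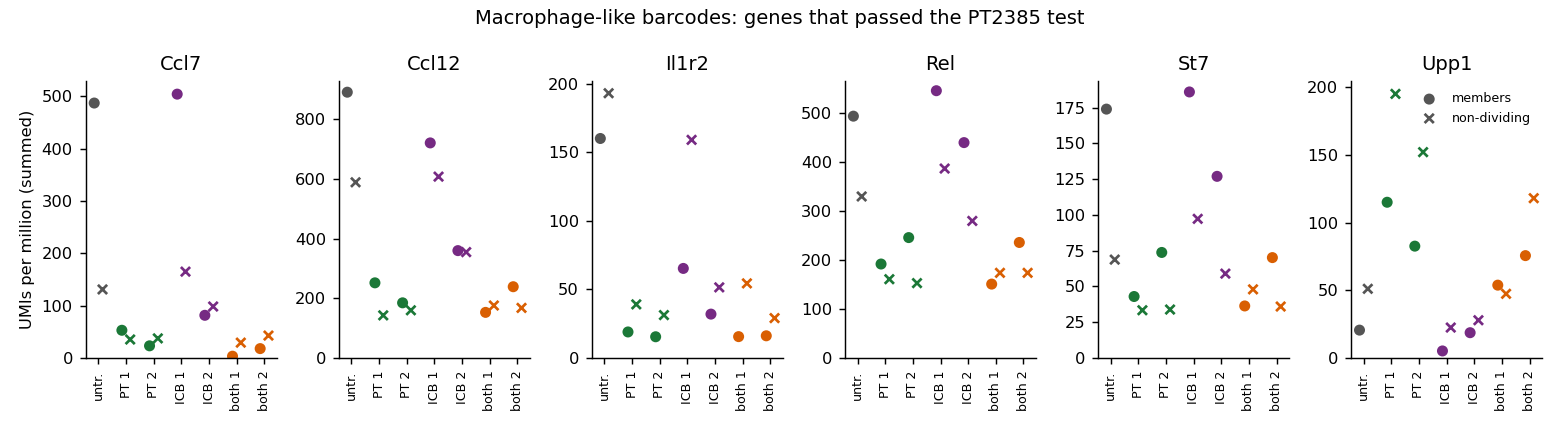
CPM (y axes) of the 6 genes that passed for PT2385 in macrophage-like members, in each library (x axis), with circles for members and crosses for non-dividing barcodes. For Ccl7 the libraries with PT2385 lie below those without it in members (3.47 to 53 against 81.6 to 504) and in non-dividing ones (29.4 to 42.9 against 98.4 to 165).

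The function lists held no gene that passed with PT2385 in macrophage-like members, so their genes are given by unadjusted p under 0.05. Counted on rounded p-values, 363 of all genes lay higher and 466 lower (9.96%, against the 832 or 9.99% given above). Their median log2 change over all genes tested was 0.01. Of the 44 DNA replication genes tested, 24 lay lower, with a list median of -0.86, among them Mcm3 (-1.16, SE 0.25, edgeR adjusted p = 0.174), Mcm5 (-1.62, SE 0.43, edgeR adjusted p = 0.247) and Pcna (-0.85, SE 0.25, edgeR adjusted p = 0.332). Of the 53 mitosis genes 1 lay lower, with a median of -0.15. The number of cycle-high barcodes among these members differed between libraries, as given above.

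No interferon gene passed. Of 17 type I interferon genes 10 lay lower (median -0.78), such as Isg15 at -0.81 (SE 0.32, edgeR adjusted p = 0.429) and Ifit3 at -0.96 (SE 0.41, edgeR adjusted p = 0.476). Of 15 interferon gamma genes 9 lay higher and 1 lower (median 0.54), such as the guanylate-binding protein Gbp2 at 0.76 (SE 0.26, edgeR adjusted p = 0.372). The gene lower was Cxcl10, at -0.98 (SE 0.30, edgeR adjusted p = 0.333). Of 21 hypoxia genes 3 lay higher and 1 lower (median 0.15), and of 7 genes of the HIF list 0 lay either way.

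The last comparison asked whether a treatment effect differed between members and non-dividing myeloid barcodes. Of 15660 genes, 0 passed for PT2385 (0.0%), with 633 (4.04%) at an unadjusted p under 0.05, and 1 for ICB (0.00639%, with 1987 or 12.7% unadjusted) by edgeR. That gene was Gzmc, a granzyme of cytotoxic lymphocytes, whose UMIs lay on 16 of the 593 members. Gzmc was also among the leading genes of a lymphoid-like cluster, with Gzma, Xcl1 and Prf1. Among cycle-high members it was also the only call of 15807 genes, lower with PT2385 (0.00633%, with 519 or 3.28% unadjusted; log2 -8.30, SE 0.83, edgeR adjusted p = 0.00185) and higher with ICB (0.00633%, with 1687 or 10.7% unadjusted; log2 8.24, SE 0.78, edgeR adjusted p = 8.9e-04). It was at 683 CPM in ICB pool 2, 52.9 in ICB pool 1 and 0 to 1.31 in the cycle-high members of the remaining libraries. With a library left out, calls in cycle-high members ran from 1 to 26 for PT2385 (26 without ICB pool 2, 6 without combination pool 1) and from 1 to 426 for ICB (426 without ICB pool 2, 181 without the untreated library, 11 without combination pool 1, 10 without ICB pool 1). In all members the ICB call was lost with doublets removed (0 calls), and the number of calls rose to 557 without the untreated library, 692 without ICB pool 2, and 5 without ICB pool 1 or combination pool 1. In macrophage-like barcodes 0 of 11135 genes passed for PT2385 (0.0%), with 570 (5.12%) at an unadjusted p under 0.05, and 1 for ICB (0.00898%, with 403 or 3.62% unadjusted). That gene was Spp1, osteopontin, at 76.6 CPM in the members of the untreated library, 20.0 and 43.7 with PT2385, 88.9 and 14.3 with ICB, and 10.4 and 1.8 with the combination. Non-dividing barcodes held 68.1, then 14.2 and 28.7, 222 and 121, and 47.4 and 26.2, and the change with ICB was lower in members (log2 -2.43, SE 0.35, edgeR adjusted p = 0.0106). Without the untreated library there were 0 calls for ICB in this comparison, and over the other left-out libraries there were 1 to 7 (7 without ICB pool 1).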

How the data were processed

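Single-cell RNA was counted in 7 droplet libraries of sorted brain leukocytes from 14 mice. The deposited values are raw UMI counts of 32285 genes for barcodes the authors had called as cells. The file headers name Cell Ranger 7.0.0, while the submitters' processing notes name Cell Ranger 2.2.0, Seurat 5 and GRCm39, and no reads were recounted here. A minimum of 300 genes and a maximum of 10% mitochondrial UMIs left 40416 of 41033 barcodes. Scrublet scored doublets in scanpy 1.11.5 at an expected rate of 5%. Its automatic threshold marked 11 barcodes, so an alternative dropped the top 0.8% of scores for every 1000 barcodes in a library, 1975 barcodes in all. In the main results doublets were kept.

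Non-dividing myeloid barcodes were clustered (Leiden, resolution 1, igraph 0.11.9) on 3000 variable genes with 50 principal components. Left out were 244 cell cycle genes, 198 of which had a correlation above 0.2 with the mitosis list. Clusters were named from marker lists, asking for at least 3 markers detected in at least 10% of barcodes and leading genes that fit the name, and clusters without these stayed unnamed. Names rest on transcripts, which "-like" marks.

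UMI sums per library, or members per class, were tested with edgeR 4.0.16 (quasi-likelihood, R 4.3.3) in an additive model of PT2385 and ICB, each comparing 4 libraries with 3. Classes were also fitted with 1 mean per group, for the combination against untreated and for the interaction. That fit has 1 untreated library, so effect sizes alone are given. Gene sums were scaled by TMM and filtered with filterByExpr, and p-values adjusted by Benjamini-Hochberg at a threshold of 0.05. Single values were compared by exact permutation of libraries (scipy 1.17.1). Named genes were the 5 largest rises and falls past the threshold with a mean of at least 20 CPM, or the 5 smallest p where fewer than 3 passed, and examples from the function lists. No class had 20 members in every library, so the macrophage-like fit used a minimum of 15. DESeq2 1.42.0 was an alternative. For simulated counts, the changed genes were drawn from those with a mean of at least 20 CPM, so recovery of genes at lower levels was not tested. All libraries had the same expected gene proportions, apart from the changes put in. On these counts, edgeR recovered 65 of 100 genes changed 2-fold and 97 of 100 changed 4-fold for PT2385, among 10733 genes, with 14 false calls. For ICB it recovered 51 and 98 of 100, among 10712 genes, with 5 false calls. For members against non-dividing barcodes with PT2385 it recovered 28 and 93 of 100, among 15558 genes, with 11 false calls. The members and lists were chosen with earlier results of these data known. P-values measure the spread between libraries, which is not the spread between pools of mice alone. In the additive model it includes any departure of the combination from the sum of both treatment effects. In the permutation test it includes any effect of the other treatment. Treatment began on day 7 per the labels, which also give 21 days of treatment with a harvest on day 21, and the files do not settle this.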

Additional observations from a re-analysis of the deposited data

Results flagged for a closer look

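In the 4 libraries with ICB, the Ccl24 cluster was 50.8% of the members of pool 1 of ICB alone, far from the other 3. In the same 4 libraries the dividing share of macrophage-like barcodes was 4.55% in that pool, also far from the others. Each gap was larger, relative to the range, than 95% of such groups give by chance. In all 32 groups of 4 libraries were looked at and 2 stood out, where chance gives about 1 in 20.

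Gzmc changed differently with ICB in members than in non-dividing myeloid barcodes (difference 8.09 on the log2 scale, SE 0.62, edgeR adjusted p = 9.8e-04). In members it was at 0.711 CPM in the untreated library, 0 and 0.917 with PT2385, 48.8 and 375 with ICB, and 20.6 and 0 with the combination. In non-dividing barcodes it was at 15.5, 2.7 and 15.4, 1.09 and 10.7, and 9.76 and 0.763 in the same order. The 375 CPM of ICB pool 2 came from 3 barcodes and the 48.8 of ICB pool 1 from 8. Summed NK markers in members were at 245 CPM in ICB pool 1 and 119 in ICB pool 2. Gzmc was a leading gene of a lymphoid-like cluster, and the part of lymphoid cells in this call was not tested.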

How the results depend on the processing

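The results rest on 7 libraries, 1 of them untreated, and classes with few members, so small changes could have been missed. No class or treatment share was called in the main results. The filter of 500 genes and 5% mitochondrial UMIs, run on shares and classes only, left the number of classes called unchanged. With 2 UMIs of Mki67 and Top2a, run on shares, stage, classes and the genes of members, the numbers of classes and genes called were unchanged. RLE size factors, run on both gene comparisons, also left the number of genes called unchanged. A fit with 1 mean per group, run on classes and on the genes of members, rests on 1 untreated library. The dividing share within classes could not be fitted with barcodes holding lymphoid UMIs removed. No paired analysis was possible because the pool numbers follow the order of the records and pair no mice.

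With each library left out, the share difference ran from -2.35 to 0.132 points for PT2385 (0.132 without ICB pool 1) and from -0.231 to 1.4 for ICB. The stage difference ran from -0.39 to -0.19 for PT2385 and from -0.15 to 0.23 for ICB, with -0.05, -0.02 and -0.02 also below 0. Classes called in the makeup ran from 0 to 3 for PT2385 (3 without ICB pool 2) and from 0 to 1 for ICB.

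As parts of the members, classes changed sign as follows, with left-out libraries as ranges. For PT2385 the Ccl24 cluster ran from -3.43 to 0.33 (0.33 without ICB pool 1), macrophage-like from -0.14 to 0.65 (-0.14 without ICB pool 1), with -0.06 when barcodes with lymphoid UMIs were removed and -0.15 in cycle-high members, and conventional dendritic-like from -0.38 to 0.36, with 0.19 in cycle-high members. Its values above 0 were 0.36, 0.05 and 0.05 without the untreated library, PT2385 pool 1 and ICB pool 2. For ICB, macrophage-like ran from -0.62 to 0.03 and microglia-like turned to -0.26, both without the untreated library.

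For the dividing share of a class, the PT2385 effect ran from -1.87 to 0.56 for the Ccl24 cluster (0.56 without ICB pool 1), with 0.17 when members and non-members were clustered together and 0.20 at resolution 2, and from -0.38 to 0.16 for macrophage-like (0.16 without ICB pool 1). For conventional dendritic-like it ran from -0.13 to 0.26, with -0.07 at resolution 2, -0.18 with 2 UMIs of each gene, -0.04 with doublets removed and -0.06 in cycle-high members. The ICB effect ran from -0.30 to 1.71 for the Ccl24 cluster (-0.30 without the untreated library, -0.01 without ICB pool 1) and from -0.29 to 0.05 for conventional dendritic-like, with 0.10 clustered together and 0.01 in cycle-high members. No value that changed sign passed the test, and the cause was not tested.

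Genes called in all members were 39 for PT2385 and 5 for ICB with DESeq2, 243 and 181 with no filter on low counts, and 3 and 1 with lymphoid UMIs removed. With libraries left out they ran from 0 to 27 (27 without ICB pool 2) and from 0 to 1. For members against non-dividing barcodes the calls were 124 and 851 with no filter, 1 and 0 with doublets removed, and 1 for PT2385 in cycle-high members. With libraries left out they ran from 0 to 8 for PT2385 (8 without ICB pool 2) and from 1 to 692 for ICB (692 without ICB pool 2, 557 without the untreated library).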

Other observations

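Border macrophage markers, among them Mrc1, Pf4 and Lyve1, summed to 847 CPM in the members of ICB pool 1, against 230 to 420 in the members of the other libraries. Microglia markers summed to 1140 CPM in the members of the untreated library and 1460 in those of ICB pool 1, against 1590 to 3020 elsewhere. Mrc1 was at 375 CPM in the members of ICB pool 1 and 25.3 to 156 in the others. Granulocyte precursor markers summed to 2750 CPM in the members of ICB pool 1, 3280 in those of combination pool 1 and 1080 in those of the untreated library, and to 1.75 to 4.53 in the other 4. At least 10 UMIs of the list were on 15 members in ICB pool 1, on 2 in combination pool 1 and on 1 in the untreated library. Elane was found only in ICB pool 1 among members, so the list's sum in combination pool 1 and the untreated library comes from its remaining genes.

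Among the cycle-high members, Ccnd3 and Cdkn2d were highest by class in the monocyte-like barcodes, at 310 and 234 CPM, where Ccnd1 was lowest, at 3.04 CPM against 90.4 to 302 in the Ccl24, microglia-like, macrophage-like, C4b and conventional dendritic-like classes. These 14 barcodes also had a median of 112 mitosis UMIs per 10000, against 69.2 over all 357 cycle-high members. Both are descriptions, since 13 of the 14 come from a single library.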
